A study of Mus musculus with 26 samples.

Results

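The genes described here encode the machinery that prepares and copies DNA: the proteins that license replication origins, the MCM helicase and the factors that activate it, the sliding clamp and its loader, the replicative polymerases and primase, the proteins of the fork and lagging strand, ribonucleotide reductase, and chromatin factors of newly made DNA. They were taken from a list of 47 mouse symbols, and each gene was represented by the probe set, of those naming it alone, with the highest mean over all arrays. A probe set is a group of short oligonucleotides on the array that are read together as 1 signal. Of the 47 genes, 46 were matched and all 46 exceeded the signal filter, out of 18193 genes with such a probe set and 13018 above the filter. Chaf1a, the large subunit of chromatin assembly factor 1, was not analysed here. The rule for choosing a gene's probe set used no comparison between groups. The list of genes itself was chosen with earlier results of these data known.

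The cells were immortalized mouse embryonic fibroblasts of 3 parental lines, called WA, WB and WC. Each line carried the pBabe-puro retroviral vector empty, with human c-myc, or with v-src, so the control cells had also been infected. In vectors of this kind the viral long terminal repeat drives the inserted gene, and c-Myc is a transcription factor while v-Src is a constitutively active tyrosine kinase. All groups had 3 arrays except v-src in WB, which had 2 because its replicate 1 was not analysed here, making 26 arrays in 9 groups. They were made to test, in transformed fibroblasts, a signature of anchorage-independent growth derived from human breast cancer lines. How the lines were immortalized, their genotype and strain and the age of the embryos are not given in the sources used here. Arrays of a group are numbered in the labels without saying whether they came from separate dishes or infections. Tests within 1 line therefore rest on array-to-array spread, possibly technical, whereas tests over the lines have n = 3 lines. Fewer replicating cells and less of an RNA per cell cannot be told apart in such bulk samples.

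In the G1 phase of the cell cycle the origin recognition complex, Cdc6 and Cdt1 load rings of Mcm2 to Mcm7 onto DNA, and geminin later blocks Cdt1 so that no origin is licensed again in the same cycle. At the start of S phase the Cdc7 kinase and cyclin-dependent kinases convert the loaded rings into active helicases with Cdc45 and the GINS complex. Primase and DNA polymerase alpha then lay down primers, replication factor C loads the PCNA clamp, and polymerases delta and epsilon extend the strands. Transcription of many of these genes rises at the G1 to S transition through the E2F family, which the retinoblastoma proteins restrain, and some are also described as targets of Myc.

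The promoters of the genes held E2F letters more often than promoters at large. RefSeq promoters of mouse assembly GRCm38.p6, from 250 bases before to 50 after each start, were given for 39 of the 47 listed genes, 49 promoters in all. They were searched on both strands for TTTCCCGC, TTTCGCGC, TTTGCCGC and TTTGGCGC, allowing overlaps, and 15 of the 49 (30.6%) held at least 1 of them. This compared with 2.26% of all 32851 promoters and 3.69% of the 13347 promoters of genes tested on the arrays. The letters CACGTG, known as an E-box that Myc can bind, were in 7 of the 49 (14.3%, against 7.15% of all and 9.43% of tested-gene promoters). CCAAT was in 27 (55.1%, against 37.4% in both). Median GC content was 62.3%, against 52.7% over all promoters and 60.3% over those of tested genes. E2F letters were in 8 of the 22 promoters of genes that rose with c-myc (36.4%) and in 7 of the 26 of genes that did not pass the test (26.9%). For CACGTG the shares were 3 of 22 (13.6%) and 3 of 26 (11.5%), and for CCAAT 12 (54.5%) and 14 (53.8%). Chaf1a, which was not analysed, is in neither set. Windows of 120 bases upstream of the start are shown for the 4 genes with the smallest adjusted p for c-myc among those with an E2F match upstream of the start, since they show the letters in place. Cdt1 and Mcm3, with smaller adjusted p than Mcm7, have their matches downstream of the start and are not shown. Capitals mark the match, and sequences run 5′ to 3′ on the gene's own strand.
Mcm5: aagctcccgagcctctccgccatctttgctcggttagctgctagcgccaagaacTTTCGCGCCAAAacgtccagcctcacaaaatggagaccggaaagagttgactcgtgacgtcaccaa
Mcm7: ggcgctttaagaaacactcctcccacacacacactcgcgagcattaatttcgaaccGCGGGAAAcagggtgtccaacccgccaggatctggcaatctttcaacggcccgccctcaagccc
Orc1: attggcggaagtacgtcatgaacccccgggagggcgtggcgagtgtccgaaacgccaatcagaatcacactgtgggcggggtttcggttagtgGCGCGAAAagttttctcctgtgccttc
Cdc6: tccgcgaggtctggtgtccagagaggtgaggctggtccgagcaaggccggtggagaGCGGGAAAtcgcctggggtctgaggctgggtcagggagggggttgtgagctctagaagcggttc
The Mcm5 window is chr8:75109302-75109421 on the plus strand, and its capitals join TTTCGCGC with an overlapping GCGCCAAA, the reverse complement of TTTGGCGC. The Mcm7 window is chr5:138171985-138172104 on the minus strand and holds GCGGGAAA, which is TTTCCCGC on the other strand. The Orc1 window is chr4:108579334-108579453 on the plus strand with GCGCGAAA, the reverse complement of TTTCGCGC, at position -27 from the start. The Cdc6 window is chr11:98907957-98908076 on the plus strand, with GCGGGAAA at position -138. A match is a description of the letters and not evidence of a bound site.

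Signals are MAS5 intensities, scaled by the authors so that every array had the same trimmed mean of 500, and log2 values are log2(signal + 23). The arrays had median signals between 89.0 and 134.6. Arrays of a group correlated over all genes at r of 0.960 to 0.983, and arrays of different groups at 0.863 to 0.959. Of 12 fibroblast markers all 12 passed the filter, which uses the mean over all arrays, and Col1a2 and Vim had group means of at least 16189 and 18973. Some others were low in some groups. Group means ran from 52.1 to 16436 for Dcn, 65.9 to 1842 for Lum, 143 to 5341 for Pdgfra and 832 to 17572 for Thy1. The remaining markers had group means of at least 880. The fibroblast marker sum ran from 112536 to 172829 on empty-vector arrays, from 97011 to 115473 with c-myc and from 97510 to 123479 with v-src. Ptprc of blood cells, Pecam1 and Tie1 of endothelium and Cdh1 of epithelium did not pass the filter. Marker sums of macrophages and blood were 594 to 1360 on empty-vector arrays, 726 to 1393 with c-myc and 818 to 1375 with v-src (4 of 7 above the filter), and those of endothelium were 267 to 481, 288 to 470 and 345 to 554 (2 of 5). Epithelial sums were 946 to 3114, 666 to 4085 and 1446 to 6227 (5 of 6), mostly from Epcam, and muscle sums 497 to 1211, 296 to 694 and 334 to 1252 (3 of 4). Neural and glial sums were 1212 to 2506, 697 to 1118 and 561 to 1170 (4 of 5). The part of these differences in the results was not tested. The ratio of the 3′ to the 5′ beta-actin probe sets was 1.08 to 1.21 over all arrays. That of Gapdh was higher on v-src than on empty-vector arrays without overlap in every line, at 0.814 to 0.828 against 0.776 to 0.788 in WA, 0.812 to 0.831 against 0.800 to 0.807 in WB and 0.830 to 0.843 against 0.796 to 0.812 in WC. On c-myc arrays it was 0.776 to 0.798, 0.782 to 0.812 and 0.806 to 0.848, overlapping the empty vector in each line.

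The mean log2 level of the 46 genes was highest with c-myc in every line. It was 10.48 ± 0.070 (SD, n = 3 arrays) in WA, 10.80 ± 0.024 in WB and 10.30 ± 0.187 in WC with the empty vector. With c-myc it was 11.05 ± 0.016, 11.01 ± 0.028 and 10.88 ± 0.094. With v-src it was 10.53 ± 0.022 in WA, 10.60 ± 0.060 (n = 2) in WB and 10.32 ± 0.037 in WC. The c-myc arrays therefore lay above the empty-vector arrays of their line, while v-src lay near the empty vector in WA and WC and below it in WB. Replicate 1 of the WC empty-vector arrays stood lowest at 10.11 against 10.32 and 10.48, and replicate 1 of WC c-myc at 10.78 against 10.91 and 10.96. Without these arrays, a choice made after seeing the data, 20 genes in place of 21 rose with c-myc over the lines, 3 fell with v-src in both cases, and 28 in place of 29 were lower with v-src than with c-myc.

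**Figure D1:**
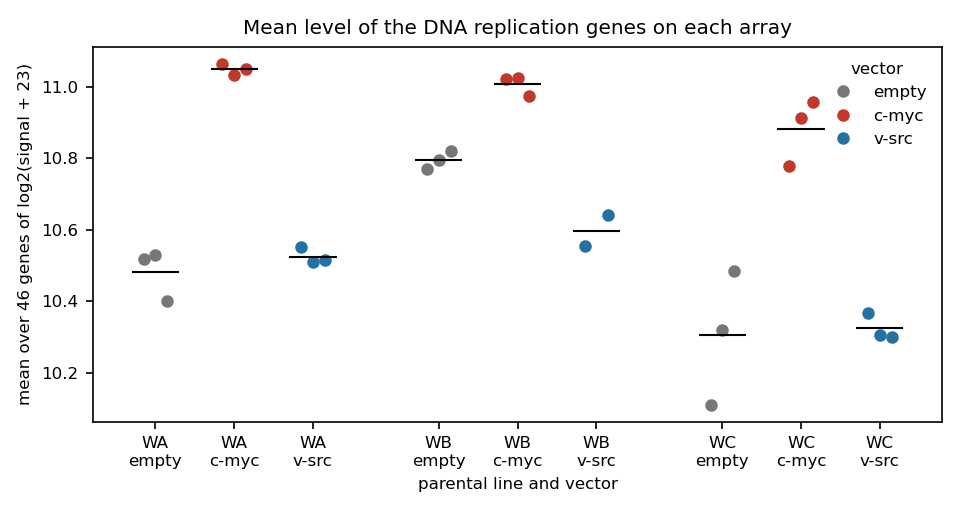
Mean of log2(signal + 23) over the 46 DNA replication genes on each of the 26 arrays, by parental line and vector, with each point 1 array and each bar the mean of a group. The c-myc arrays sit between 10.78 and 11.06, above the empty-vector arrays of the same line, and the WC empty-vector arrays spread from 10.11 to 10.48.

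The levels by group show the same division gene by gene. WA with c-myc was the highest of the 9 groups for 20 genes, WB with c-myc for 14 and WC with c-myc for 5. WC with the empty vector was the lowest group for 20 genes and WC with v-src for 12. Of a gene's variance among the 9 group averages, a median of 59.0% went with the vector, 19.6% with the line and 10.6% with their combination. Over all 13018 genes the medians were 41.7%, 28.1% and 17.8%.

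**Figure D2:**
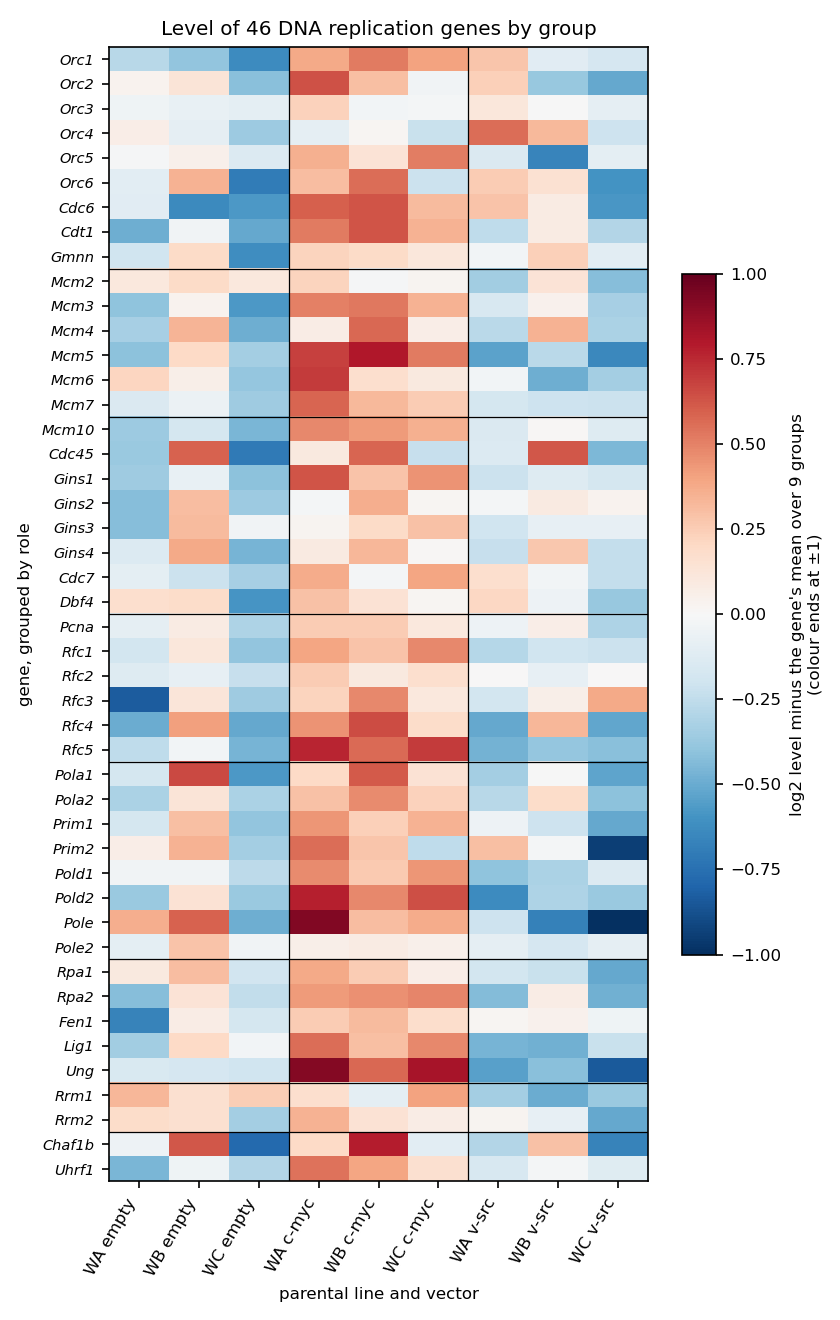
Log2 level of each of the 46 genes in the 9 groups, minus the gene's mean over the groups, with genes as rows in order of role and colour running from -1 (blue) to 1 (red). The 3 c-myc columns are mostly red, and the WC columns with empty vector and v-src mostly blue.

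With c-myc, 21 of the 46 genes rose over the lines and 0 fell. Among all 13018 genes 10.0% rose and 9.76% fell. The genes that rose were Orc1, Cdc6 and Cdt1 of licensing; Mcm3, Mcm4, Mcm5, Mcm7, Mcm10 and Gins1 of the helicase; Pcna, Rfc1, Rfc2, Rfc4 and Rfc5 of the clamp; Pola2, Pold1 and Pold2 of the polymerases; and Rpa2, Fen1, Ung and Uhrf1. The median difference of the 46 was 0.39 on the log2 scale, against 0.041 over all genes, and 44 of the 46 were above 0. At an unadjusted p under 0.05, in either direction, there were 32, and all genes were not counted at that level. The difference between a vector and the empty vector was fitted with limma on the averages of line and vector, with p adjusted over all 13018 genes and a threshold of 0.05. The 2 genes below 0 were Mcm2 at -0.053 and Rrm1 at -0.087, neither past the test. Their second probe sets, nearly as bright, were above 0, at 0.50 and 0.095. Without WA 4 genes rose, without WC 3 and without WB 18, of which 16 were among the 21, while leaving out any single array left 20 to 22. For fits without a line or an array, the share of all genes was not counted. In each comparison over the lines, a fit without a line has fewer averages and residual degrees of freedom. Such counts alone therefore do not show in which lines an effect lay. The c-myc calls lost in this way had adjusted p from 0.0502 (Mcm10 and Rfc5 without WA) to 0.247 (Rfc2 without WC). Cdt1 and Mcm5 kept their calls without any 1 of the 3 lines, with differences of 0.76 to 0.93 and 0.73 to 0.98.

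**Figure D3:**
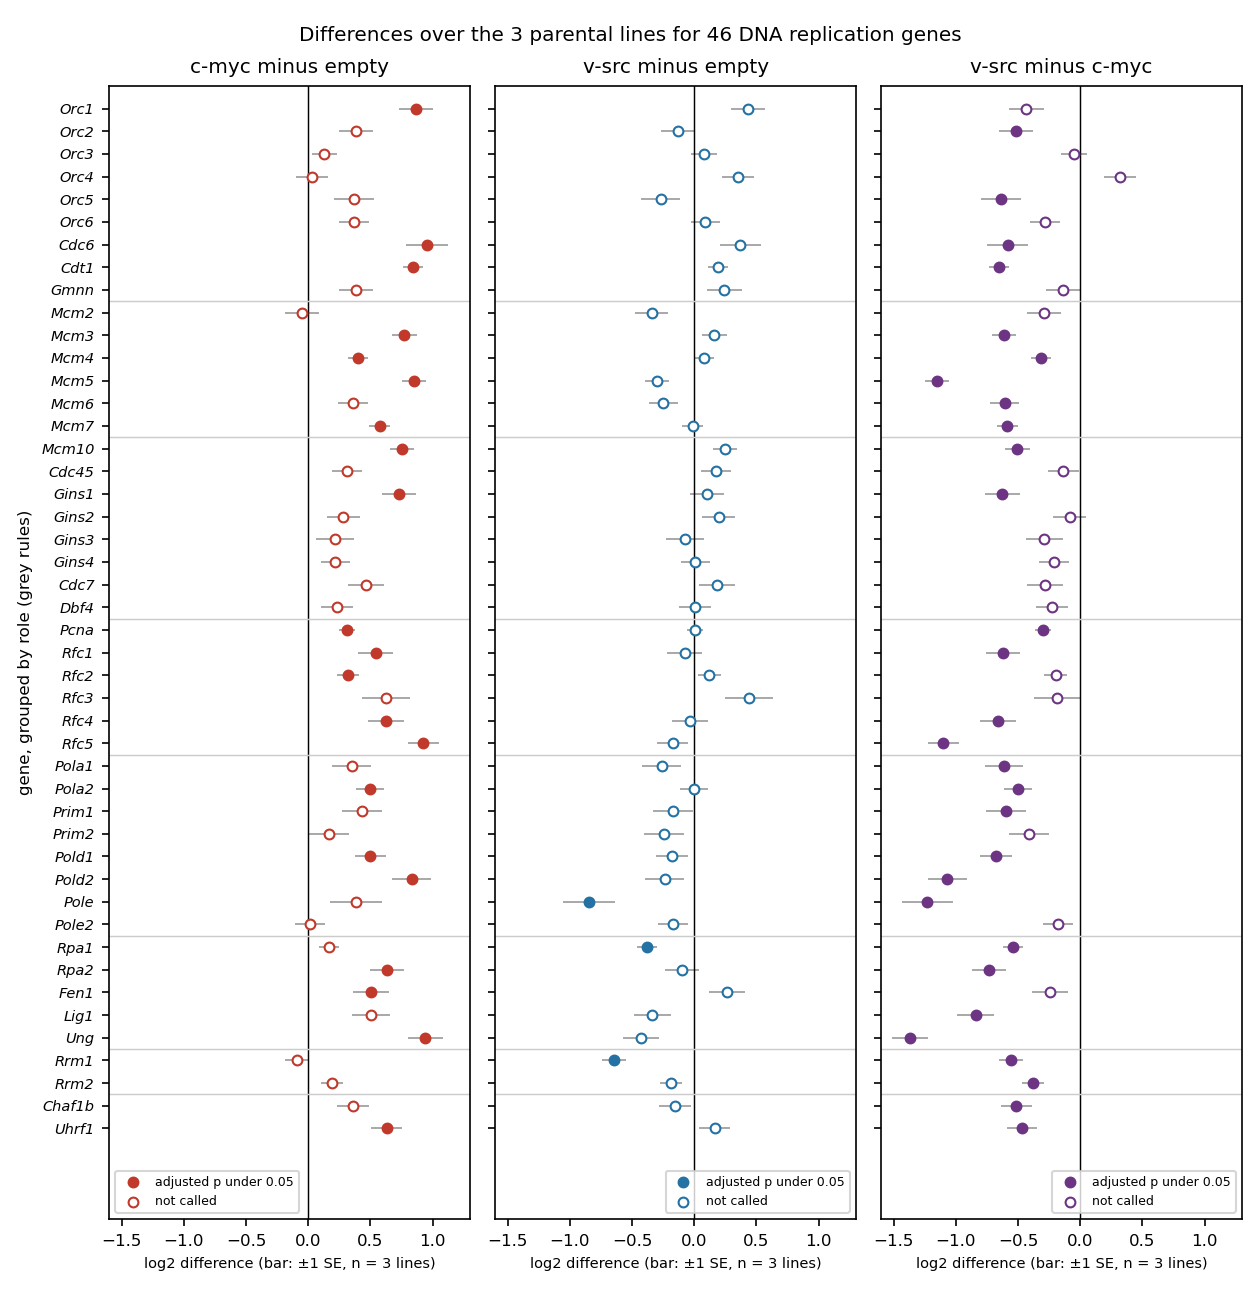
Log2 difference over the 3 parental lines for each of the 46 genes, with bars of 1 SE and filled points past an adjusted p of 0.05, for c-myc minus empty, v-src minus empty and v-src minus c-myc. In the first panel 21 genes are filled and to the right, in the second 3 are filled and to the left, and in the third 29 are filled and to the left.

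Of 9 licensing genes, 3 rose with c-myc, with a median difference of 0.38, and 0 passed the test with v-src, with a median of 0.19. Cdt1 brings the MCM ring to the origin. Cdt1 signals with the empty vector were 2799, 2978 and 3291 in WA, 3950.2, 4308 and 4165 in WB and 2683, 3011 and 3266 in WC. Cdt1 signals with c-myc were 5960.2, 5852 and 6438 in WA, 6494, 7016 and 6268 in WB and 5091, 5636 and 5521 in WC. Cdt1 signals with v-src were 3611, 3733 and 3343 in WA, 4676 and 4335 in WB and 3555, 3379 and 3423 in WC. For Cdt1, the c-myc arrays and the v-src arrays both lay above every empty-vector array of the same line in all 3 lines. Cdt1 rose with c-myc by 0.84 (SE 0.083, adjusted p = 0.00262), 1.79-fold, and its v-src difference was 0.19 (adjusted p = 0.171). Cdc6 is the ATPase that loads the ring together with the origin recognition complex. On empty-vector arrays Cdc6 read 486, 488 and 446 in WA, 305, 372 and 297 in WB and 227, 365 and 460.4 in WC. On c-myc arrays Cdc6 read 878, 750.0 and 743 in WA, 689, 812 and 934 in WB and 597, 664 and 685 in WC. On v-src arrays Cdc6 read 759, 566 and 586 in WA, 567 and 528 in WB and 350.0, 362 and 298 in WC. For Cdc6, the c-myc arrays lay above every empty-vector array of the same line in all 3 lines, whereas the v-src arrays lay above every empty-vector array of the same line in WA and WB and overlapped them in WC. The Cdc6 difference for c-myc over the lines was 0.96 (SE 0.17, adjusted p = 0.00885), 1.94-fold, against 0.37 for v-src (adjusted p = 0.178). Orc1 is the largest subunit of the origin recognition complex. Without an oncogene, Orc1 signals were 369, 323 and 293 in WA, 270.5, 306 and 327 in WB and 258, 173 and 349 in WC. With c-myc, Orc1 signals were 540.4, 510.2 and 538 in WA, 603, 593 and 557 in WB and 445, 548 and 633 in WC. With v-src, Orc1 signals were 519, 485 and 470.2 in WA, 362 and 375 in WB and 339, 356 and 371 in WC. The Orc1 values with c-myc lay above every empty-vector array of the same line in all 3 lines, and those with v-src lay above every empty-vector array of the same line in WA and WB and overlapped them in WC. Orc1 rose with c-myc by 0.87 (SE 0.14, adjusted p = 0.00702), 1.82-fold, and its v-src difference was 0.43 (adjusted p = 0.0775). A second Orc1 probe set above the filter gave 0.054 with c-myc (adjusted p = 0.824 over all probe sets) and -0.019 with v-src. The rise of Orc1 thus rested on the chosen probe set.

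The other licensing genes did not pass the test over the lines. Gmnn encodes geminin, the inhibitor of Cdt1. On empty-vector arrays Gmnn read 1788, 1689 and 1489 in WA, 2253, 2199.9 and 2080.2 in WB and 1046, 1154 and 1547 in WC. On c-myc arrays Gmnn read 2267, 2262 and 2140.2 in WA, 2359, 2075 and 2100.5 in WB and 1796, 2133 and 2265 in WC. On v-src arrays Gmnn read 1882, 1816 and 1897 in WA, 2087 and 2423 in WB and 1901, 1758 and 1639 in WC. For Gmnn, the c-myc arrays and the v-src arrays both lay above every empty-vector array of the same line in WA and WC and overlapped them in WB. Over the lines, Gmnn differed by 0.38 (SE 0.14, adjusted p = 0.0878) with c-myc and by 0.24 with v-src (adjusted p = 0.274). Orc2 is a core subunit of the origin complex. Without an oncogene, Orc2 signals were 997, 1204 and 1005 in WA, 1252, 987 and 1177 in WB and 757, 674 and 893 in WC. With c-myc, Orc2 signals were 1823, 1504 and 1557 in WA, 1242, 1372 and 1243 in WB and 1043, 1005 and 979 in WC. With v-src, Orc2 signals were 1229, 1154 and 1302 in WA, 839 and 745 in WB and 671, 775 and 721 in WC. The Orc2 values with c-myc lay above every empty-vector array of the same line in WA and WC and overlapped them in WB, and those with v-src lay below every empty-vector array of the same line in WB and overlapped them in WA and WC. Over the lines, Orc2 differed by 0.38 (SE 0.14, adjusted p = 0.0892) with c-myc and by -0.13 with v-src (adjusted p = 0.564). Orc5 is another core subunit. Orc5 signals with the empty vector were 398, 479 and 530.2 in WA, 513, 475 and 473 in WB and 442, 356 and 487 in WC. Orc5 signals with c-myc were 588, 608 and 623 in WA, 510.2, 517 and 533 in WB and 704, 662 and 671 in WC. Orc5 signals with v-src were 391, 445 and 434 in WA, 239 and 348 in WB and 503, 446 and 371 in WC. The Orc5 values with c-myc lay above every empty-vector array of the same line in WA and WC and overlapped them in WB, and those with v-src lay below every empty-vector array of the same line in WB and overlapped them in WA and WC. Over the lines, Orc5 differed by 0.37 (SE 0.16, adjusted p = 0.143) with c-myc and by -0.27 with v-src (adjusted p = 0.295). Orc6 is the smallest subunit. On empty-vector arrays Orc6 read 1608, 1481 and 1509 in WA, 1965, 2231 and 2134 in WB and 817, 1141 and 1108 in WC. On c-myc arrays Orc6 read 2106, 2064 and 1983 in WA, 2661, 2400.0 and 2308 in WB and 1319, 1496 and 1455 in WC. On v-src arrays Orc6 read 2102, 2003 and 1823 in WA, 1712 and 1988 in WB and 1129, 1033 and 1095 in WC. For Orc6, the c-myc arrays lay above every empty-vector array of the same line in all 3 lines, whereas the v-src arrays lay above every empty-vector array of the same line in WA and overlapped them in WB and WC. Over the lines, Orc6 differed by 0.37 (SE 0.12, adjusted p = 0.0654) with c-myc and by 0.09 with v-src (adjusted p = 0.658). Orc3 had group means of 696 to 873 and differences of 0.13 with c-myc and 0.079 with v-src. Orc4 had group means of 959 to 1827 and differences of 0.032 and 0.35, and its other probe sets above the filter had v-src differences of -0.28 and -0.14, opposite in sign.

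In the MCM helicase 4 of 6 subunits rose with c-myc, with a median of 0.49, and 0 passed the test with v-src, with a median of -0.13. Mcm5 is 1 of the 6 subunits of the ring. Mcm5 signals with the empty vector were 3804, 3568 and 2909.6 in WA, 4937, 5275 and 5402 in WB and 3208, 3458 and 4079 in WC. Mcm5 signals with c-myc were 6676, 7757 and 7422 in WA, 7866, 8493 and 7398 in WB and 6847, 5959 and 6704 in WC. Mcm5 signals with v-src were 3174, 2981 and 3179 in WA, 3646 and 3863 in WB and 2920.0, 3005 and 2733 in WC. The Mcm5 values with c-myc lay above every empty-vector array of the same line in all 3 lines, and those with v-src lay below every empty-vector array of the same line in WB and WC and overlapped them in WA. Mcm5 rose with c-myc by 0.85 (SE 0.097, adjusted p = 0.00329), 1.80-fold, and its v-src difference was -0.30 (adjusted p = 0.0814). Mcm3 sits next to Mcm5 in the ring. Without an oncogene, Mcm3 signals were 3296, 3185 and 2739 in WA, 4096, 4007 and 4387 in WB and 2258, 2729 and 3273 in WC. With c-myc, Mcm3 signals were 6029, 5773 and 5517 in WA, 5739, 6248 and 5619.9 in WB and 4805, 5259.8 and 5471 in WC. With v-src, Mcm3 signals were 3843, 3547 and 3481 in WA, 4041 and 4333 in WB and 3228, 3362 and 3068 in WC. The Mcm3 values with c-myc lay above every empty-vector array of the same line in all 3 lines, and those with v-src lay above every empty-vector array of the same line in WA and overlapped them in WB and WC. The Mcm3 difference for c-myc over the lines was 0.77 (SE 0.097, adjusted p = 0.0042), 1.71-fold, against 0.16 for v-src (adjusted p = 0.305). Mcm7, whose intron hosts a microRNA cluster, encodes another subunit. On empty-vector arrays Mcm7 read 7439.7, 7490.5 and 7663 in WA, 7566, 8235 and 8279.7 in WB and 5755, 6626 and 7239 in WC. On c-myc arrays Mcm7 read 11723, 12685 and 13147 in WA, 10976, 10891 and 9561 in WB and 9522, 10416 and 9922 in WC. On v-src arrays Mcm7 read 7355, 7417 and 7397 in WA, 6986 and 7452 in WB and 7459, 7136 and 6926 in WC. For Mcm7, the c-myc arrays lay above every empty-vector array of the same line in all 3 lines, whereas the v-src arrays lay below every empty-vector array of the same line in WA and WB and overlapped them in WC. Mcm7 rose with c-myc by 0.57 (SE 0.085, adjusted p = 0.00573), 1.49-fold, and its v-src difference was -0.014 (adjusted p = 0.934). Mcm4 forms the catalytic core with Mcm6 and Mcm7. Mcm4 signals with the empty vector were 3181, 3451 and 3516 in WA, 5535, 4996 and 5697 in WB and 2724, 2990.1 and 3427 in WC. Mcm4 signals with c-myc were 4606, 4467 and 4415 in WA, 6311, 6830.5 and 5973 in WB and 4155, 4622 and 4598 in WC. Mcm4 signals with v-src were 3843, 3380.3 and 3367 in WA, 5353 and 5529 in WB and 3399, 3457 and 3423 in WC. The Mcm4 values with c-myc lay above every empty-vector array of the same line in all 3 lines, and those with v-src overlapped the empty-vector arrays in all 3 lines. The Mcm4 difference for c-myc over the lines was 0.40 (SE 0.081, adjusted p = 0.0146), 1.32-fold, against 0.082 for v-src (adjusted p = 0.543). Mcm6 is the third subunit of that core. Without an oncogene, Mcm6 signals were 4297, 3794 and 4116 in WA, 3339.5, 3827 and 3809 in WB and 2656, 2493 and 2861 in WC. With c-myc, Mcm6 signals were 5351, 5702 and 6024 in WA, 4226, 3997 and 3614 in WB and 3693, 3712 and 3836 in WC. With v-src, Mcm6 signals were 3390.0, 3456 and 3433 in WA, 2201 and 2812 in WB and 3095, 2776 and 2454 in WC. The Mcm6 values with c-myc lay above every empty-vector array of the same line in WA and WC and overlapped them in WB, and those with v-src lay below every empty-vector array of the same line in WA and WB and overlapped them in WC. Over the lines, Mcm6 differed by 0.36 (SE 0.12, adjusted p = 0.0689) with c-myc and by -0.25 with v-src (adjusted p = 0.202). Mcm2, which also binds histones, had group means of 2643 to 4155 and a c-myc difference of -0.053 (SE 0.14, adjusted p = 0.823). Its second probe set, nearly as bright, gave 0.50 with adjusted p = 0.0173 over all probe sets, so the call for Mcm2 depended on the probe set.

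Of 8 genes that activate the helicase, 2 rose with c-myc, with a median of 0.30, and 0 passed the test with v-src, with a median of 0.14. Mcm10 is needed for the loaded helicase to start unwinding. On empty-vector arrays Mcm10 read 1016, 841 and 741 in WA, 968, 1009 and 982 in WB and 735, 776 and 909 in WC. On c-myc arrays Mcm10 read 1585, 1440.4 and 1664 in WA, 1446, 1493 and 1590.1 in WB and 1244, 1507 and 1557 in WC. On v-src arrays Mcm10 read 1036, 975 and 1012 in WA, 1120.1 and 1131 in WB and 972, 1046 and 1032 in WC. For Mcm10, the c-myc arrays lay above every empty-vector array of the same line in all 3 lines, whereas the v-src arrays lay above every empty-vector array of the same line in WB and WC and overlapped them in WA. Mcm10 rose with c-myc by 0.75 (SE 0.10, adjusted p = 0.00458), 1.69-fold, and its v-src difference was 0.25 (adjusted p = 0.142). Gins1 is a subunit of the GINS complex, which becomes part of the moving helicase. Gins1 signals with the empty vector were 605, 513 and 467 in WA, 642, 677 and 609 in WB and 411, 495 and 628 in WC. Gins1 signals with c-myc were 1112, 1051 and 1013 in WA, 868, 839 and 779.9 in WB and 789, 1022 and 1001 in WC. Gins1 signals with v-src were 511, 569 and 671 in WA, 622 and 608 in WB and 534, 606 and 652 in WC. The Gins1 values with c-myc lay above every empty-vector array of the same line in all 3 lines, and those with v-src overlapped the empty-vector arrays in all 3 lines. The Gins1 difference for c-myc over the lines was 0.73 (SE 0.14, adjusted p = 0.0118), 1.66-fold, against 0.10 for v-src (adjusted p = 0.665). Dbf4 is the activating partner of the Cdc7 kinase. Without an oncogene, Dbf4 signals were 3250.5, 3629 and 3326 in WA, 3438, 3316 and 3531 in WB and 1444, 2349 and 2343 in WC. With c-myc, Dbf4 signals were 3654, 3697 and 3749 in WA, 3830.1, 3195 and 3039.7 in WB and 2885, 3049 and 3279 in WC. With v-src, Dbf4 signals were 3544, 3509 and 3430.2 in WA, 2873 and 2948 in WB and 2437, 2121 and 2386 in WC. The Dbf4 values with c-myc lay above every empty-vector array of the same line in WA and WC and overlapped them in WB, and those with v-src lay below every empty-vector array of the same line in WB and overlapped them in WA and WC. Over the lines, Dbf4 differed by 0.23 (SE 0.13, adjusted p = 0.237) with c-myc and by 0.0047 with v-src (adjusted p = 0.986). Cdc7 itself had group means of 313 to 533 and a c-myc difference of 0.46 (SE 0.15, adjusted p = 0.0606). Cdc45, the other partner of the moving helicase, had group means of 558 to 1424 and a c-myc difference of 0.31 (SE 0.12, adjusted p = 0.116). Gins2, Gins3 and Gins4 had c-myc differences of 0.28, 0.22 and 0.22 and v-src differences of 0.20, -0.073 and 0.0078.

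Among the clamp and its loader 5 of 6 genes rose with c-myc, with a median of 0.58, and 0 passed the test with v-src, with a median of -0.013. Rfc5 is a small subunit of replication factor C, the clamp loader. Rfc5 signals with the empty vector were 1653, 1732 and 1248 in WA, 1826, 1770.2 and 1771 in WB and 896, 1405 and 1807 in WC. Rfc5 signals with c-myc were 3227, 3018 and 3114 in WA, 2711, 2870.5 and 2578 in WB and 2664, 3099.5 and 3195 in WC. Rfc5 signals with v-src were 1275, 1259 and 1404 in WA, 1305 and 1488 in WB and 1395, 1418 and 1284 in WC. The Rfc5 values with c-myc lay above every empty-vector array of the same line in all 3 lines, and those with v-src lay below every empty-vector array of the same line in WB and overlapped them in WA and WC. Rfc5 rose with c-myc by 0.93 (SE 0.12, adjusted p = 0.00458), 1.90-fold, and its v-src difference was -0.17 (adjusted p = 0.381). Pcna encodes the sliding clamp that holds polymerases on DNA. On empty-vector arrays Pcna read 10048, 10161 and 12094 in WA, 11217, 11955 and 13079.6 in WB and 8286, 9808 and 9544 in WC. On c-myc arrays Pcna read 13314, 13528 and 13860.2 in WA, 14529, 13648 and 12652 in WB and 11255, 13088 and 12498 in WC. On v-src arrays Pcna read 11386, 10827 and 10825 in WA, 11791 and 12027 in WB and 8563, 9613 and 9442 in WC. For Pcna, the c-myc arrays lay above every empty-vector array of the same line in WA and WC and overlapped them in WB, whereas the v-src arrays overlapped the empty-vector arrays in all 3 lines. The Pcna difference for c-myc over the lines was 0.31 (SE 0.064, adjusted p = 0.0158), 1.24-fold, against 0.0067 for v-src (adjusted p = 0.959). Without an intensity trend in the variance its c-myc call was lost. Rfc4 is another small subunit of the loader. Without an oncogene, Rfc4 signals were 835, 858 and 672 in WA, 1431, 1419 and 1611 in WB and 664, 739 and 948 in WC. With c-myc, Rfc4 signals were 1496, 1541 and 1553 in WA, 1755, 1820.1 and 1715 in WB and 1315, 1275 and 1207 in WC. With v-src, Rfc4 signals were 789.8, 787 and 749 in WA, 1334 and 1487 in WB and 841, 717 and 757 in WC. The Rfc4 values with c-myc lay above every empty-vector array of the same line in all 3 lines, and those with v-src overlapped the empty-vector arrays in all 3 lines. Rfc4 rose with c-myc by 0.63 (SE 0.15, adjusted p = 0.0226), 1.54-fold, and its v-src difference was -0.033 (adjusted p = 0.902). Rfc1 is the large subunit of the loader. Rfc1 signals with the empty vector were 957, 961 and 1152 in WA, 1238, 1227 and 1299 in WB and 734, 1004 and 915 in WC. Rfc1 signals with c-myc were 1615, 1496 and 1483 in WA, 1365, 1471 and 1421 in WB and 1422, 1835 and 1654 in WC. Rfc1 signals with v-src were 1029, 965 and 861 in WA, 869.8 and 1162 in WB and 994, 947 and 1054 in WC. The Rfc1 values with c-myc lay above every empty-vector array of the same line in all 3 lines, and those with v-src lay below every empty-vector array of the same line in WB and overlapped them in WA and WC. The Rfc1 difference for c-myc over the lines was 0.54 (SE 0.14, adjusted p = 0.0312), 1.46-fold, against -0.078 for v-src (adjusted p = 0.747). Rfc2 is a small subunit. On empty-vector arrays Rfc2 read 1706, 1895 and 1459 in WA, 1590.0, 1832 and 1778 in WB and 1302, 1617 and 1797 in WC. On c-myc arrays Rfc2 read 2229.9, 2094 and 2261 in WA, 1891, 2009 and 1996 in WB and 1883, 2142 and 2179 in WC. On v-src arrays Rfc2 read 1786, 1798 and 1933 in WA, 1692 and 1779 in WB and 1763, 1927 and 1818 in WC. For Rfc2, the c-myc arrays lay above every empty-vector array of the same line in all 3 lines, whereas the v-src arrays overlapped the empty-vector arrays in all 3 lines. Rfc2 rose with c-myc by 0.32 (SE 0.091, adjusted p = 0.0434), 1.25-fold, and its v-src difference was 0.12 (adjusted p = 0.407). This call was lost under 10 of 40 alternatives, among them leaving out any 1 of the 3 lines, the mean of all probe sets, no intensity trend, and leaving out WA empty replicate 3, WB empty replicate 1, WC empty replicate 1 or WB v-src replicate 3. Rfc3 completes the loader. Without an oncogene, Rfc3 signals were 502, 633 and 361 in WA, 1028, 931 and 937 in WB and 544, 729.8 and 805 in WC. With c-myc, Rfc3 signals were 1167, 954 and 1003 in WA, 1199, 1241 and 1285 in WB and 862, 966 and 1041 in WC. With v-src, Rfc3 signals were 768, 725 and 838 in WA, 901 and 947 in WB and 1368, 1065 and 1052 in WC. The Rfc3 values with c-myc lay above every empty-vector array of the same line in all 3 lines, and those with v-src lay above every empty-vector array of the same line in WA and WC and overlapped them in WB. Over the lines, Rfc3 differed by 0.63 (SE 0.19, adjusted p = 0.0543) with c-myc and by 0.44 with v-src (adjusted p = 0.167).

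Of 8 polymerase and primase genes, 3 rose with c-myc, with a median of 0.41, and 1 fell with v-src, with a median of -0.21. Pold2 is an accessory subunit of DNA polymerase delta. Pold2 signals with the empty vector were 2036, 2099 and 1633 in WA, 2716, 2783 and 2697 in WB and 1657, 2095 and 2004 in WC. Pold2 signals with c-myc were 4377, 4296 and 4118 in WA, 3953, 3202 and 3250.4 in WB and 3371, 4400.4 and 3912 in WC. Pold2 signals with v-src were 1558, 1447 and 1777 in WA, 1881 and 2117 in WB and 2049.8, 1956 and 1719 in WC. The Pold2 values with c-myc lay above every empty-vector array of the same line in all 3 lines, and those with v-src lay below every empty-vector array of the same line in WB and overlapped them in WA and WC. Pold2 rose with c-myc by 0.83 (SE 0.16, adjusted p = 0.0115), 1.78-fold, and its v-src difference was -0.24 (adjusted p = 0.35). Pold1 is the catalytic subunit of polymerase delta. On empty-vector arrays Pold1 read 1211, 1098 and 996 in WA, 1168, 1062 and 1068 in WB and 804, 955 and 1063 in WC. On c-myc arrays Pold1 read 1570.3, 1514 and 1617 in WA, 1198, 1346 and 1530.3 in WB and 1531, 1554 and 1521 in WC. On v-src arrays Pold1 read 964, 795 and 781 in WA, 913 and 886 in WB and 1151, 914 and 1007 in WC. For Pold1, the c-myc arrays lay above every empty-vector array of the same line in all 3 lines, whereas the v-src arrays lay below every empty-vector array of the same line in WA and WB and overlapped them in WC. The Pold1 difference for c-myc over the lines was 0.50 (SE 0.13, adjusted p = 0.0302), 1.41-fold, against -0.18 for v-src (adjusted p = 0.384). The call was lost with the mean of all its probe sets. Pola2 is an accessory subunit of polymerase alpha. Without an oncogene, Pola2 signals were 740.0, 645 and 503 in WA, 753, 798 and 1043 in WB and 595, 654 and 619 in WC. With c-myc, Pola2 signals were 997, 948 and 938 in WA, 1249.5, 1166 and 896 in WB and 828, 898 and 1039.9 in WC. With v-src, Pola2 signals were 799, 635 and 515 in WA, 788 and 1002 in WB and 762, 579 and 444 in WC. The Pola2 values with c-myc lay above every empty-vector array of the same line in WA and WC and overlapped them in WB, and those with v-src overlapped the empty-vector arrays in all 3 lines. Pola2 rose with c-myc by 0.50 (SE 0.11, adjusted p = 0.0198), 1.41-fold, and its v-src difference was -0.00085 (adjusted p = 0.997). Pola1 is the catalytic subunit of polymerase alpha. Pola1 signals with the empty vector were 925, 1087 and 834 in WA, 1681, 1729 and 1699 in WB and 606, 702 and 843 in WC. Pola1 signals with c-myc were 1352, 1171 and 1178 in WA, 1535, 1731 and 1692 in WB and 946, 1209 and 1453 in WC. Pola1 signals with v-src were 930.0, 847 and 746 in WA, 963 and 1176 in WB and 837, 683 and 695 in WC. The Pola1 values with c-myc lay above every empty-vector array of the same line in WA and WC and overlapped them in WB, and those with v-src lay below every empty-vector array of the same line in WB and overlapped them in WA and WC. Over the lines, Pola1 differed by 0.35 (SE 0.16, adjusted p = 0.155) with c-myc and by -0.26 with v-src (adjusted p = 0.299). Prim1 is the catalytic subunit of primase. On empty-vector arrays Prim1 read 1548, 1808 and 1718 in WA, 2199.9, 2418 and 2469.8 in WB and 1284, 1436 and 1649 in WC. On c-myc arrays Prim1 read 2591, 2545 and 2668 in WA, 2331, 2318 and 2125 in WB and 2151, 2518 and 2667 in WC. On v-src arrays Prim1 read 1973, 1982 and 1604 in WA, 1659 and 1643 in WB and 1326, 1299.5 and 1369.7 in WC. For Prim1, the c-myc arrays lay above every empty-vector array of the same line in WA and WC and overlapped them in WB, whereas the v-src arrays lay below every empty-vector array of the same line in WB and overlapped them in WA and WC. Over the lines, Prim1 differed by 0.43 (SE 0.16, adjusted p = 0.0993) with c-myc and by -0.17 with v-src (adjusted p = 0.529). Prim2 is the large subunit of primase. Without an oncogene, Prim2 signals were 1129, 1514 and 1226 in WA, 1573, 1436 and 1700.3 in WB and 812, 1052 and 1036 in WC. With c-myc, Prim2 signals were 1806, 1885 and 1748 in WA, 1712, 1516 and 1263 in WB and 970.0, 1079 and 1023 in WC. With v-src, Prim2 signals were 1606, 1522 and 1426 in WA, 1072 and 1359 in WB and 695, 557 and 639 in WC. The Prim2 values with c-myc lay above every empty-vector array of the same line in WA and overlapped them in WB and WC, and those with v-src lay below every empty-vector array of the same line in WB and WC and overlapped them in WA. Over the lines, Prim2 differed by 0.17 (SE 0.16, adjusted p = 0.506) with c-myc and by -0.24 with v-src (adjusted p = 0.359). Pole2, an accessory subunit of polymerase epsilon, had group means of 732 to 1013 and differences of 0.013 with c-myc and -0.17 with v-src.

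Among 5 genes of the fork, lagging strand and repair, 3 rose with c-myc, with a median of 0.50, and 1 fell with v-src, with a median of -0.34. Ung encodes uracil-DNA glycosylase, which removes uracil from new DNA. On empty-vector arrays Ung read 493, 449.9 and 479 in WA, 520.2, 425 and 465 in WB and 362, 412 and 633 in WC. On c-myc arrays Ung read 1139, 947 and 975 in WA, 783, 752 and 862 in WB and 720.3, 1006 and 1182 in WC. On v-src arrays Ung read 376, 329 and 359.5 in WA, 391 and 389 in WB and 272, 237 and 361 in WC. For Ung, the c-myc arrays lay above every empty-vector array of the same line in all 3 lines, whereas the v-src arrays lay below every empty-vector array of the same line in all 3 lines. Ung rose with c-myc by 0.94 (SE 0.14, adjusted p = 0.00621), 1.92-fold, and its v-src difference was -0.43 (adjusted p = 0.0908). Rpa2 is the middle subunit of replication protein A, which coats single-stranded DNA. Rpa2 signals with the empty vector were 767, 913 and 809.8 in WA, 1234, 1154 and 1310.3 in WB and 815, 992 and 1017 in WC. Rpa2 signals with c-myc were 1794, 1223 and 1572 in WA, 1416, 1688 and 1532 in WB and 1484, 1604 and 1645 in WC. Rpa2 signals with v-src were 754, 788 and 933 in WA, 1157 and 1196 in WB and 785, 889.7 and 717 in WC. The Rpa2 values with c-myc lay above every empty-vector array of the same line in all 3 lines, and those with v-src overlapped the empty-vector arrays in all 3 lines. The Rpa2 difference for c-myc over the lines was 0.64 (SE 0.14, adjusted p = 0.0177), 1.55-fold, against -0.10 for v-src (adjusted p = 0.661). Fen1 is the nuclease that trims the flaps of Okazaki fragments. Without an oncogene, Fen1 signals were 2154, 1919 and 1381 in WA, 2621, 3723 and 2774 in WB and 3688, 2257 and 1926 in WC. With c-myc, Fen1 signals were 3252, 3465 and 3486 in WA, 3689, 3651 and 3332 in WB and 2591, 3337 and 3838 in WC. With v-src, Fen1 signals were 2775, 2598 and 3357 in WA, 2883 and 2995 in WB and 2264, 3003 and 3086 in WC. For Fen1, the c-myc arrays and the v-src arrays both lay above every empty-vector array of the same line in WA and overlapped them in WB and WC. Fen1 rose with c-myc by 0.50 (SE 0.14, adjusted p = 0.0458), 1.42-fold, and its v-src difference was 0.26 (adjusted p = 0.265). This call was lost under 15 of 40 alternatives, 3 of which left out a line and 10 a single array (WA empty replicates 1 and 2, WB empty 1 and 3, WC empty 2 and 3, WB c-myc 1, WC c-myc 2 and 3, WA v-src 2). The other Fen1 probe set gave 0.66 with c-myc (adjusted p = 0.0118 over all probe sets). For v-src minus c-myc it gave -0.57 (adjusted p = 0.0143), against -0.24 (adjusted p = 0.27) for the chosen one, so this comparison depended on the probe set. Lig1 is the ligase that joins those fragments. On empty-vector arrays Lig1 read 1425, 1409.6 and 1389 in WA, 1857, 2192 and 2169.9 in WB and 1521, 1739.6 and 2069 in WC. On c-myc arrays Lig1 read 2641, 2623 and 2695 in WA, 2141, 2170.4 and 2353 in WB and 2644, 2553 and 2352 in WC. On v-src arrays Lig1 read 1255, 1328 and 1288 in WA, 1227 and 1327 in WB and 1429, 1703 and 1478 in WC. For Lig1, the c-myc arrays lay above every empty-vector array of the same line in WA and WC and overlapped them in WB, whereas the v-src arrays lay below every empty-vector array of the same line in WA and WB and overlapped them in WC. Over the lines, Lig1 differed by 0.50 (SE 0.15, adjusted p = 0.051) with c-myc and by -0.34 with v-src (adjusted p = 0.178). Of the chromatin factors, 1 of 2 rose. Uhrf1 reads hemimethylated DNA behind the fork and brings the maintenance methyltransferase. Without an oncogene, Uhrf1 signals were 1963, 2003 and 2113 in WA, 2900.2, 2347 and 2958 in WB and 1869, 2261 and 2778 in WC. With c-myc, Uhrf1 signals were 4268, 4323 and 3709 in WA, 4361, 3698 and 3113 in WB and 2879, 3250.4 and 3248 in WC. With v-src, Uhrf1 signals were 2661, 2387 and 2452 in WA, 2477 and 3061 in WB and 2767, 2462 and 2501 in WC. The Uhrf1 values with c-myc lay above every empty-vector array of the same line in all 3 lines, and those with v-src lay above every empty-vector array of the same line in WA and overlapped them in WB and WC. The Uhrf1 difference for c-myc over the lines was 0.63 (SE 0.12, adjusted p = 0.0127), 1.55-fold, against 0.16 for v-src (adjusted p = 0.411). Chaf1b is the middle subunit of chromatin assembly factor 1. Chaf1b signals with the empty vector were 874, 707 and 877 in WA, 1218, 1367 and 1379 in WB and 419.9, 529 and 511 in WC. Chaf1b signals with c-myc were 993, 926 and 1006 in WA, 1330.0, 1522 and 1580.0 in WB and 834, 788 and 744 in WC. Chaf1b signals with v-src were 705, 664 and 696 in WA, 968 and 1129 in WB and 471, 529 and 582 in WC. The Chaf1b values with c-myc lay above every empty-vector array of the same line in WA and WC and overlapped them in WB, and those with v-src lay below every empty-vector array of the same line in WA and WB and overlapped them in WC. Over the lines, Chaf1b differed by 0.36 (SE 0.13, adjusted p = 0.0853) with c-myc and by -0.15 with v-src (adjusted p = 0.467).

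**Figure D4:**
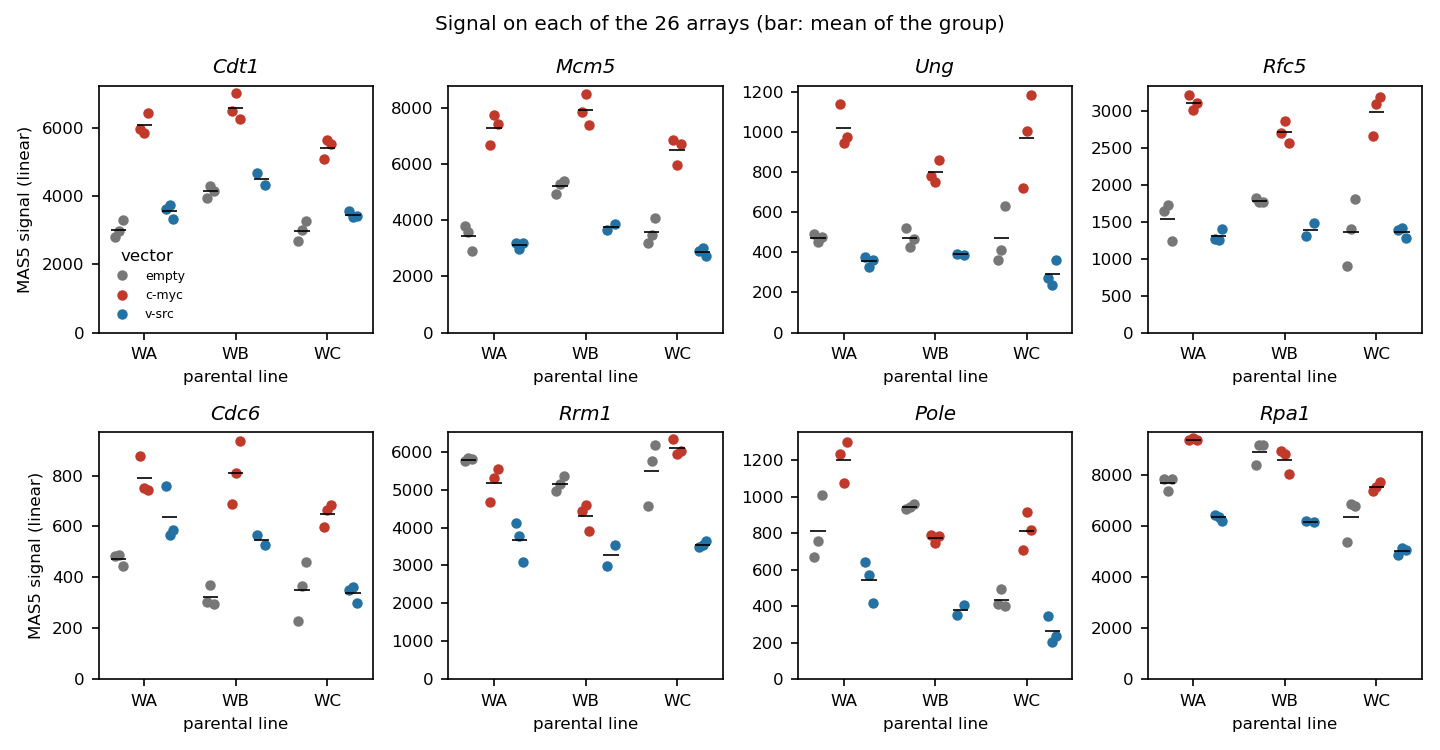
MAS5 signal (linear scale from 0) of 8 DNA replication genes on each of the 26 arrays, by parental line and vector, with bars at group means. For Cdt1, Mcm5, Ung, Rfc5 and Cdc6 the c-myc arrays stand above the empty-vector arrays in each line, and for Rrm1, Pole and Rpa1 the v-src arrays stand below them.

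With v-src, 3 of the 46 genes fell over the lines and 0 rose, against 6.79% and 6.64% of all genes. They were Rrm1, Pole and Rpa1, and the median of the 46 was -0.023 against 0.017 over all genes. At an unadjusted p under 0.05, in either direction, there were 10, and all genes were not counted at that level. Rrm1 is the large subunit of ribonucleotide reductase, which makes deoxyribonucleotides. Rrm1 signals with the empty vector were 5742, 5825 and 5806 in WA, 4953, 5140.3 and 5360.3 in WB and 4559, 5748 and 6186 in WC. Rrm1 signals with c-myc were 4678, 5312 and 5540.0 in WA, 4442, 4591 and 3904 in WB and 6340.1, 5945 and 6015 in WC. Rrm1 signals with v-src were 4128, 3778 and 3085 in WA, 2997 and 3543 in WB and 3478, 3539 and 3635 in WC. The Rrm1 values with c-myc lay below every empty-vector array of the same line in WA and WB and overlapped them in WC, and those with v-src lay below every empty-vector array of the same line in all 3 lines. Rrm1 fell with v-src by 0.65 in log2 (SE 0.095, adjusted p = 0.00597) and differed by -0.087 with c-myc (adjusted p = 0.564). Its second bright probe set gave -0.46 with v-src and 0.095 with c-myc, the latter opposite in sign to the chosen one. Pole is the catalytic subunit of polymerase epsilon, which copies the leading strand. On empty-vector arrays Pole read 672, 759.9 and 1007 in WA, 935, 941 and 958 in WB and 413, 493 and 403 in WC. On c-myc arrays Pole read 1234, 1077 and 1297 in WA, 788, 746 and 784 in WB and 706, 918 and 819 in WC. On v-src arrays Pole read 643, 568 and 417 in WA, 353 and 408 in WB and 347, 205 and 235 in WC. For Pole, the c-myc arrays lay above every empty-vector array of the same line in WA and WC and below every one of them in WB, whereas the v-src arrays lay below every empty-vector array of the same line in all 3 lines. The v-src difference of Pole was -0.85 (SE 0.21, adjusted p = 0.0345), 1.80-fold lower, and the c-myc difference 0.38 (adjusted p = 0.233). Rpa1 is the large subunit of replication protein A. Without an oncogene, Rpa1 signals were 7881, 7393 and 7848 in WA, 8414, 9194 and 9181 in WB and 5377, 6893 and 6808 in WC. With c-myc, Rpa1 signals were 9380.2, 9460.5 and 9382 in WA, 8947, 8829 and 8063 in WB and 7398, 7529.8 and 7745 in WC. With v-src, Rpa1 signals were 6460.0, 6376 and 6228 in WA, 6192 and 6181 in WB and 4893, 5147 and 5087 in WC. The Rpa1 values with c-myc lay above every empty-vector array of the same line in WA and WC and overlapped them in WB, and those with v-src lay below every empty-vector array of the same line in all 3 lines. For v-src the Rpa1 difference was -0.38 (SE 0.08, adjusted p = 0.0219), and for c-myc 0.16 (adjusted p = 0.191). The second Rpa1 probe set gave -0.44 with v-src. Rrm2, the small subunit of ribonucleotide reductase, had group means of 4726 to 8574 and a v-src difference of -0.19 (SE 0.09, adjusted p = 0.203). Without WA 0 genes fell, and without WB or without WC 1 did. Rrm1 kept its call without WB and without WC and lost it without WA. Pole lost its call without WA empty replicate 3 or WA v-src replicate 3, and both Pole and Rpa1 lost theirs without an intensity trend. Under quantile normalization Rpa1 also lost its call (-0.31, adjusted p = 0.0518). The 3′ to 5′ Gapdh ratio was higher on v-src than on empty-vector arrays in each line, and its part in these differences was not tested.

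Against c-myc, v-src arrays were lower for 29 of the 46 genes over the lines and higher for 0, where 13.7% of all genes were lower and 11.9% higher. This comparison uses the same c-myc and v-src arrays as the comparisons with the empty vector. The median was -0.51, against -0.018 over all genes. By role, 5 of 6 MCM subunits, 6 of 8 polymerase and primase genes, 4 of 5 fork and lagging strand genes, 4 of 6 clamp genes, 4 of 9 licensing genes and both ribonucleotide reductase subunits were lower. Of the 8 helicase activation genes 2 were lower, Mcm10 at -0.51 (SE 0.10, adjusted p = 0.00954) and Gins1 at -0.63 (SE 0.14, adjusted p = 0.0149). Of the 46, Ung had the largest difference at -1.37 (SE 0.14, adjusted p = 0.00117), 2.58-fold lower. Pole followed at -1.23 (SE 0.21, adjusted p = 0.00562), then Mcm5 at -1.15 (SE 0.097, adjusted p = 0.000686), Rfc5 at -1.10 (SE 0.12, adjusted p = 0.00137) and Pold2 at -1.07 (SE 0.16, adjusted p = 0.00349). In all 3 lines 28 genes lay lower on every v-src array than on any c-myc array of the line, against 13.0% of all genes, and 0 lay higher (10.3%). Orc4 alone had a difference above 0, 0.32 (SE 0.13, adjusted p = 0.108), and its other probe sets above the filter gave -0.067 and -0.10. Mcm2, the MCM subunit not called, was at -0.29 (adjusted p = 0.16). The second Mcm2 probe set gave -0.60 (adjusted p = 0.00616 over all probe sets). Of the 29 calls, Pcna lost its own under quantile normalization, at -0.16 (adjusted p = 0.141), as did Rrm2 (adjusted p = 0.0519). Without an intensity trend Mcm4, Pcna, Prim1, Rrm2 and Uhrf1 were lost, with the mean of probe sets Mcm4, Prim1 and Chaf1b, and without the signal filter Cdc6. Cdc6 was also lost without WC empty replicate 1. Leaving out WA left 11 of the 29 calls, leaving out WC 13 and leaving out WB 23, with 24 called in all. The 11 genes called in each of these were Cdt1, Mcm3, Mcm5, Mcm7, Rfc5, Pold2, Pole, Rpa1, Lig1, Ung and Rrm1.

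Arrays were also compared within each line without averaging. On the c-myc arrays 21 genes were above every empty-vector array of their line in all 3 lines, against 9.03% of all genes, and 0 were below (9.33%). Of these 21, 18 had also risen over the lines, while Orc6, Cdc7 and Rfc3 had not, and Pcna, Pola2 and Fen1 rose over the lines but overlapped in at least 1 line. On the v-src arrays 1 gene, Cdt1, was above in all 3 lines (7.47%) and 4 genes, Pole, Rpa1, Ung and Rrm1, were below (9.07%). Within WA 36 of the 46 rose with c-myc (19.0% of all genes), within WB 13 (12.5%) and within WC 38 (18.6%). Of the 46, 0 fell with c-myc within WA, WB or WC by the limma fit, against 18.5%, 14.5% and 18.6% of all genes. At an unadjusted p of 0.05, 38, 19 and 38 passed in either direction, and all genes were not counted at that level. The medians were 0.50 in WA, 0.18 in WB and 0.58 in WC, against 0.062, 0.025 and 0.017 over all genes. With v-src 7 rose and 4 fell in WA (13.2% and 14.1%), 2 rose and 13 fell in WB (12.0% and 13.5%), and 6 rose and 7 fell in WC (13.8% and 15.1%). The v-src medians were 0.040, -0.17 and 0.051. Orc1, Orc4, Orc6 and Cdt1 of licensing were among the 7 that rose with v-src in WA, with Gins2, Rfc3 and Fen1. In WB 5 of the 8 polymerase and primase genes fell with v-src (Pola1, Prim1, Pold2, Pole and Pole2). Leaving out single arrays moved several v-src counts. In WB 8 genes passed without v-src replicate 2, of which 0 rose, and 1 rose without v-src replicate 3. In WC 12 rose without empty replicate 3, when 4 fell, and 2 rose without empty replicate 1, empty replicate 2 or v-src replicate 3 (when 7 passed in all), and 3 without v-src replicate 2. In WA 4 rose without empty replicate 3 or without v-src replicate 1.

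**Figure D5:**
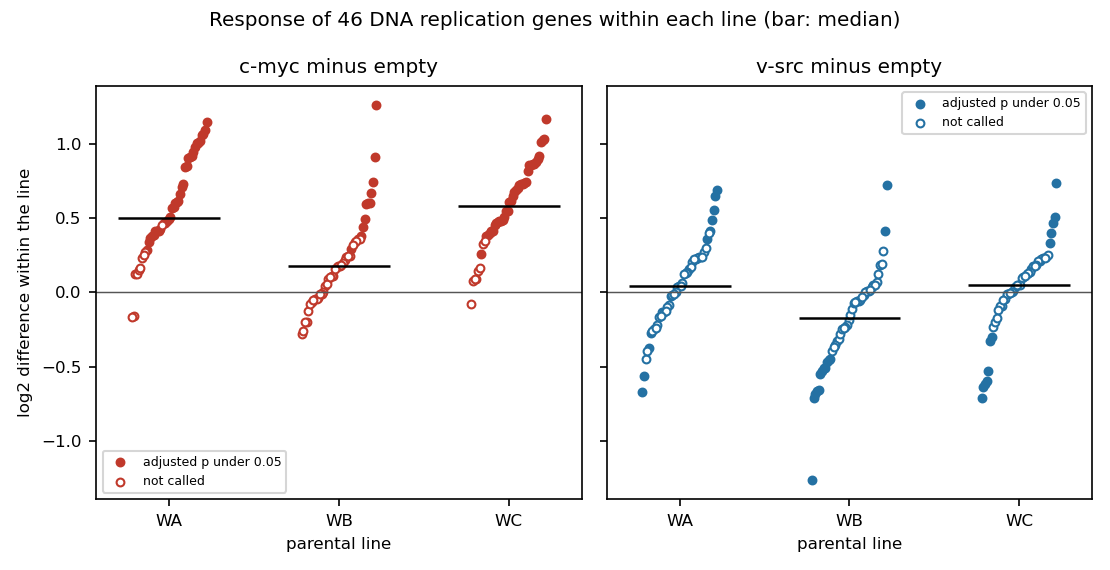
Log2 difference from the empty vector of the 46 genes within each parental line, for c-myc and for v-src, with 1 point a gene in rank order, filled past an adjusted p of 0.05, and bars at the medians. The c-myc medians are 0.50 in WA, 0.18 in WB and 0.58 in WC. The v-src medians lie between -0.17 and 0.051.

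The c-myc effect itself differed between the lines for 16 of the 46 genes by a moderated F test, against 16.2% of all genes. In all 16 the lowest c-myc difference was in WB. Prim1 differed from the empty vector by 0.62 in WA, -0.064 in WB and 0.74 in WC (adjusted p of the F test = 0.000346). The WA effect of Prim1 exceeded that in WB by 0.68 (adjusted p = 0.00157), and WB minus WC was -0.80 (adjusted p = 0.000506). Lig1 differed by 0.90 in WA, 0.10 in WB and 0.51 in WC. For Pold2 the differences were 1.15 in WA, 0.34 in WB and 1.01 in WC. Pole, the catalytic subunit of polymerase epsilon, differed by 0.57 in WA, -0.28 in WB and 0.86 in WC. Rfc4 of the clamp loader differed by 0.94 in WA, 0.24 in WB and 0.69 in WC, with 0.57 in WA, 0.17 in WB and 0.88 in WC for Rfc1. Gmnn differed by 0.42 in WA, -0.0012 in WB and 0.73 in WC, so the geminin transcript rose in WA and WC while its WB value was near 0. Dbf4 and Chaf1b had their largest effects in WC, at 0.12 in WA, -0.038 in WB and 0.61 in WC for Dbf4 and 0.25 in WA, 0.16 in WB and 0.68 in WC for Chaf1b. Uhrf1 had its largest in WA, at 1.01 in WA, 0.44 in WB and 0.45 in WC. Pola1 differed by 0.38 in WA, -0.044 in WB and 0.72 in WC. For Mcm5 the differences were 1.09 in WA, 0.60 in WB and 0.86 in WC, for Mcm3 0.91 in WA, 0.49 in WB and 0.92 in WC. Rpa1, Rfc3 and Gins1 complete the 16. The count was 9 without WB empty replicate 2, WB empty replicate 3 or WB c-myc replicate 3, and 10 without WA c-myc replicate 2. Prim1, Lig1, Pold2, Pole, Rfc4, Gmnn and Rfc1 kept their calls under all 34 alternatives run for this test. Cdt1, Cdc6 and Orc1 did not pass it, with adjusted p = 0.0852, 0.245 and 0.485.

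The v-src effect differed between the lines for 8 genes, against 13.5% of all genes. They were Prim2, Prim1, Lig1, Mcm6, Orc2, Orc5, Rfc3 and Orc6. Prim2 differed from the empty vector by 0.24 in WA, -0.37 in WB and -0.59 in WC. It fell in WC and did not pass the test in WA or WB. Orc2 differed by 0.20 in WA, -0.51 in WB and -0.091 in WC, Prim1 by 0.13 in WA, -0.51 in WB and -0.12 in WC. Both fell in WB and did not pass the test in WA or WC. Lig1 differed by -0.12 in WA, -0.69 in WB and -0.20 in WC, Mcm6 by -0.24 in WA, -0.55 in WB and 0.051 in WC. Rfc3 differed by 0.65 in WA, -0.061 in WB and 0.73 in WC. It rose in WA and WC. Without WB v-src replicate 2 the count was 3, and without WB empty replicate 2, WB empty replicate 3 or WC v-src replicate 1 it was 5. Prim1 alone kept its v-src call under all 34 alternatives.

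The lines already differed in these genes with the empty vector, for 33 of the 46 (44.9% of all genes). WB was highest: 22 genes were lower in WA than in WB (13.4%) and 1, Cdc6, was higher (12.7%), while 29 were higher in WB than in WC (16.5%) and 0 lower (16.0%). WA exceeded WC for 15 genes (14.7%), and Rfc3 and Lig1 were lower (15.1%). The median differences were -0.29 for WA minus WB, 0.19 for WA minus WC and 0.45 for WB minus WC. Chaf1b had the smallest adjusted p of the F test, with WB above WC by 1.40, and for Cdc45 WB minus WC was 1.29 and WA minus WB -0.96. Mcm4, Orc6, Rfc4 and Pola1 were also higher in WB than in WC, by 0.83, 1.04, 0.92 and 1.23. These levels and the differences within lines share the empty-vector arrays. On c-myc arrays 16 genes differed between the lines (40.1%) and on v-src arrays 25 (39.0%), by tests added after the values were seen. The median range of a gene between lines was 0.52 with the empty vector, 0.29 with c-myc and 0.41 with v-src, against 0.43, 0.40 and 0.40 over all genes. Cdc45, Chaf1b and Orc6 were among the genes that differed between lines with every vector, with Orc2, Cdt1, Mcm4, Mcm6, Rfc4, Pola1 and Prim2. For Prim1 and Gmnn, WB minus WC was 0.69 and 0.81 with the empty vector and -0.11 and 0.081 with c-myc.

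Other genes of S phase and of the cell cycle were counted from further lists. Of 43 tested partners of replication (fork stabilizers, nucleotide enzymes, histone chaperones and others), 17 rose and 1 fell with c-myc (10.0% and 9.76% of all genes), with a median of 0.37. The largest were Dna2, a nuclease-helicase of Okazaki fragments, at 0.94 (SE 0.16, adjusted p = 0.00847), Nasp, a histone chaperone, at 0.88 (SE 0.13, adjusted p = 0.00561), Timeless, which steadies stalled forks, at 0.87 (SE 0.20, adjusted p = 0.0207), and Dut, the dUTPase, at 0.78 (SE 0.18, adjusted p = 0.0224). With v-src 2 partners rose, Pold4 at 0.73 (SE 0.16, adjusted p = 0.025) and Mcmbp at 0.37 (SE 0.085, adjusted p = 0.0296), and Mcm9 fell at -0.54 (SE 0.15, adjusted p = 0.0481), with a median of -0.048, so 2 and 1 of 43 stood beside 6.64% and 6.79% of all genes. Against c-myc, 20 partners were lower with v-src and 1, Pold4, was higher (13.7% and 11.9% of all genes, median of the list -0.40).

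Of 25 tested E2F, Rb and G1 regulators, 6 rose and 2 fell with c-myc (10.0% and 9.76% of all genes), with a median of 0.24. E2f5, a member of the family that acts with the Rb-like proteins, rose by 1.85 (SE 0.20, adjusted p = 0.00292), Ccne1, cyclin E1, by 0.76 (SE 0.11, adjusted p = 0.00538), and Cdc25a, the phosphatase that activates Cdk2, by 0.71 (SE 0.11, adjusted p = 0.00693). Ccnd1, cyclin D1, was lower at -0.71 (SE 0.17, adjusted p = 0.0244). With v-src 3 rose and 2 fell (6.64% and 6.79% of all genes), with a median of -0.011: Cdkn1a, the Cdk inhibitor p21, at 1.72 (SE 0.41, adjusted p = 0.0311), E2f5 at 1.63 (SE 0.20, adjusted p = 0.00307), E2f8, a repressor, at 0.94 (SE 0.13, adjusted p = 0.00538), and Ccnd2, cyclin D2, at -1.01 (SE 0.12, adjusted p = 0.00271) among them. Against c-myc, 3 were higher and 9 lower with v-src (11.9% and 13.7%), with a median of -0.20. Of 28 tested mitotic genes 2 rose with c-myc, Cenpa at 0.35 (SE 0.071, adjusted p = 0.0152) and Cdc20 at 0.33 (SE 0.081, adjusted p = 0.0269), against 10.0% of all genes, with a median of 0.20. Within the lines 13 mitotic genes rose with c-myc in WA (19.0% of all genes) and 21 in WC (18.6%), with medians of 0.25 and 0.45, whereas in WB 0 rose and 6 fell (12.5% and 14.5%), with a median of -0.12. With v-src 5 mitotic genes fell and 0 rose (6.79% and 6.64%), with a median of -0.21, among them Ndc80 at -0.57 (SE 0.15, adjusted p = 0.0455) and Mki67, the proliferation marker, at -0.56 (SE 0.14, adjusted p = 0.0357). Against c-myc 13 mitotic genes were lower with v-src (13.7%), with a median of -0.43, Cdc20 the lowest at -0.81 (SE 0.081, adjusted p = 0.00099).

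Other probe sets were checked for the genes described here. Of the 46, 30 had more than 1 probe set above the filter, with 43 further probe sets in all. Of these 43, 38 had the same sign as the chosen one with c-myc and 27 with v-src. All 14 of the genes that rose with c-myc and had such a probe set kept the sign in every one of them, and 14 of the 43 further probe sets passed the test by themselves. The same sign did not always mean a similar size, since the second Orc1 probe set was at 0.054.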

How the data were processed

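The authors deposited a linear intensity per probe set and array, 45101 probe sets in all. Per the submitters' processing notes these came from MAS5, with no version given in the sources used here. Of these probe sets, 34958 named 1 gene in the platform annotation, 932 several and 9211 none, and 64 controls were left out. The deposited intensities, which carry a 2% trimmed mean of 500, were taken as log2(signal + 23), with the pseudocount at the 20th percentile. Differences on this log2 scale understate the change of dim genes. Probe sets not above the 40th percentile of mean log2 signal were dropped and the brightest of each gene kept, which left 13018 genes.

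Genes were tested on the log2 scale with limma 3.58.1 (R 4.3.3), eBayes following an intensity trend and p-values adjusted by Benjamini-Hochberg over all 13018 genes, at 0.05. Over the lines, arrays of a line and vector were averaged and the 9 averages were fitted by line plus vector (degrees of freedom 4 residual, 3.9 prior), so a gene has the same SE in each of these comparisons. Within and between lines, the 26 arrays had a mean for each of 9 groups (degrees of freedom 17 residual, 6.2 prior), with moderated F tests for effects that differ between lines. The scripts were tested on simulated data.

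The genes and the other lists (replication partners, E2F, Rb and G1 regulators, mitosis, cell type markers) were chosen with earlier results of these data known. All listed genes were named or counted, with values on every array for those past the threshold against the empty vector over the lines or differing in effect between lines, and at most 4 named genes per other list and comparison. Symbols were checked against RefSeq genes of GRCm38.p6, and 0 changed. All per-sample columns were mapped, so 0 were left over. The free-text sample description describes other material and stayed unused. Alternatives changed the filter, pseudocount, normalization, probe set choice, variance trend and unit of replication, and left out lines and arrays.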

Additional observations from a re-analysis of the deposited data

Results flagged for a closer look

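The response to c-myc differed between the parental lines for 16 of the 46 genes, by a moderated F test of the difference itself on the 26 arrays. The genes, each with its adjusted p, were Prim1 (0.000346), Lig1 (0.000486), Pold2 (0.00176), Pole (0.00334), Rfc4 (0.00594), Gmnn (0.00665), Rfc1 (0.0128), Dbf4 (0.0228), Pola1 (0.0238), Chaf1b (0.0364), Mcm5 (0.0365), Uhrf1 (0.0377), Rpa1 (0.0383), Mcm3 (0.0438), Rfc3 (0.0465) and Gins1 (0.0479). The effect was lowest in WB for all 16. Calls of Rfc3 were lost under 24 of the 34 alternatives, of Gins1 under 23, of Mcm3 under 22, of Rpa1 under 12, of Mcm5 and Uhrf1 under 10 each, of Chaf1b under 9, of Pola1 under 4 and of Dbf4 under 2 (without WB c-myc replicate 3 or WC c-myc replicate 3).

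The response to v-src differed between the lines for 8 genes, Prim2 (0.00526), Prim1 (0.0114), Lig1 (0.0128), Mcm6 (0.0129), Orc2 (0.0131), Orc5 (0.034), Rfc3 (0.0354) and Orc6 (0.0421), with adjusted p of the same test. Calls of Orc6 were lost under 16 of the 34 alternatives, of Rfc3 under 8 and of Orc5 under 7. Those of Mcm6 and Lig1 were lost without WB v-src replicate 2, that of Orc2 without WB v-src replicate 3, and that of Prim2 with the mean of all its probe sets. The effects share the empty-vector arrays of their line, and v-src in WB rests on 2 arrays.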

How the results depend on the processing

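Changing the filter, pseudocount, normalization or probe sets kept the counts over the lines within 1.5 times, as did leaving out any 1 array, whereas the unit of replication and leaving out a line did not. With arrays as separate values 39 genes rose with c-myc in place of 21, with a random block for each line and vector 33, and with the replicate block 39. For v-src over the lines 23 genes in place of 3 passed with separate arrays (8 higher, 15 lower), 11 with the random block (5 higher, 6 lower), 24 with the replicate block (8 higher, 16 lower) and 1 without an intensity trend. In each of the first 3 settings 1 gene was higher with v-src than with c-myc, in place of 0. All genes were not counted under these settings, so these counts cannot be set against a share of all genes. The replicate block moved no other count by over 1.5 times. The array numbers were not taken as pairs, since deviations of same-numbered arrays from their group means had a median r of -0.013, with 9 of 100 pairs over 0.1, and 1 of 26 arrays was closest to its own number. The 2 alternatives that tested each probe set alone and left out replicate 1 of WC empty and WC c-myc were chosen after seeing the data. In WB, quantile normalization gave 1 gene lower with c-myc in place of 0, as did leaving out these 2 WC arrays, which also gave 3 in place of 6 higher with v-src in WC. The mean of probe sets gave 1 in place of 2 higher with v-src in WB. Without a trend, 10 genes in place of 16 had c-myc effects that differ between lines. With a line or an array left out, the ranges were 3 to 22 genes for c-myc over the lines, 0 to 3 for v-src, 11 to 30 for v-src against c-myc, 9 to 21 for c-myc effects that differ and 3 to 12 for v-src effects that differ. Within lines they were 0 to 1 lower with c-myc in WB (1 without WC empty replicate 1 or WA v-src replicate 3) and 4 to 9 higher with v-src in WA. With v-src they were 8 to 18 in WB (0 to 2 higher, 8 to 16 lower) and 7 to 16 in WC (2 to 12 higher, 4 to 8 lower). With the mean of probe sets, 3 values within lines changed sign: Cdc45 with c-myc in WA was -0.12, Pold1 with c-myc in WB -0.029 and Mcm2 with c-myc in WC 0.31. The cause was not tested. No depth can be given for arrays, and their number limits the precision.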
